A study of Mus musculus with 27 samples.

Results

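The type I interferon response genes described here are 37 mouse genes chosen by name as transcripts that interferon induces. All 37 were found in both deposited count tables, and all 37 reached at least 10 counts in 2 or more libraries of each table. That rule kept 14596 of 53412 rows of the minocycline table and 16804 of 55421 rows of the enrichment table. After the filter of the test, 37 of the 14579 tested genes were members in the minocycline table, and 36 of the 15921 tested genes were members in the enrichment table, where Ifi44 had too few counts.

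The libraries are polyA RNA-seq of CD11b+ cells sorted from prefrontal cortex (PFC) or hippocampus (HC) of mice whose strain is labelled C57BJ6. CD11b is a surface integrin of microglia and other myeloid cells, and chronic unpredictable mild stress (CUMS) is a regime of changing mild stressors used to model depression. In the minocycline experiment, naive controls (NAIVE) had 2 libraries in each region, stressed mice without a drug named (CUMS) had 2 in PFC and 3 in HC, and stressed mice given the tetracycline antibiotic minocycline (CUMS_M) had 3 in each. In the enrichment experiment all mice were stressed, and 3 libraries in each region came from mice given vehicle (VEH) and 3 from mice housed with environmental enrichment (EE). No transgene is named for any group, and age, sex and dose are not given in the labels. Whether the libraries of a group come from separate animals is not stated either, and the spread that the tests use may then be technical only.

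Type I interferons signal through the receptor subunits Ifnar1 and Ifnar2 and the kinases Jak1 and Tyk2. A complex that holds the transcription factors Stat2 and Irf9 then binds the interferon-stimulated response element in the promoters of target genes. Many of the induced proteins sense foreign RNA or DNA, bind or degrade viral RNA, or block virus entry and release, and in the brain microglia are among the cells that can switch the set on.

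The element the complex binds is shown first because it is what many of the members share in sequence. The letters GAAANNGAAA were searched on both strands of the RefSeq promoter windows of GRCm38.p6, which run from 250 bases before to 50 bases after a gene's start. Of the 26 members with a window, 14 held at least 1 match (53.8%), against 1079 of all 27025 genes (3.99%) and 1131 of 32851 windows (3.44%). A window was not found for 11 members, and 12 members with a window had no match to these letters. There were 8 members with 2 or more matches. A match describes letters and not a measured binding event. The matches of a transcription factor (Stat2), of RNA-binding effectors (Ifit1, Ifit3, Oas1a) and of a membrane protein and a radical enzyme (Ifitm3, Rsad2) are printed as windows of 30 bases with the 10 matched bases in capitals. A further match each in Oas1a and Ifitm3 is not printed. The Ifit3 windows are letter for letter those of its neighbour Ifit3b.
Stat2, chr10:128270266-128270295, minus strand: ctagggaaagGAAACTGAAAccagggtgcg
Ifit1, chr19:34640794-34640823, minus strand: tcagcagtgaGAAACTGAAActgagactgg
Ifit1, chr19:34640775-34640804, minus strand: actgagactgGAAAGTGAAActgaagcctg
Ifit3, chr19:34583397-34583426, minus strand: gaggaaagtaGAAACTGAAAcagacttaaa
Ifit3, chr19:34583363-34583392, minus strand: accagaagagGAAAGTGAAActtaccactg
Oas1a, chr5:120907520-120907549, minus strand: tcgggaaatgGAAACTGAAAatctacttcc
Rsad2, chr12:26456553-26456582, plus strand: tctgttttctGAAAATGAAAgttggaccag
Ifitm3, chr7:141010706-141010735, minus strand: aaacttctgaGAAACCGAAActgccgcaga

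The 250 bases before the start are printed for Isg15, whose product is the ubiquitin-like protein that gives the ISG15 system its name, and for Trim30a, the only member called by edgeR in the comparisons below under the settings used throughout. Both run 5′ to 3′ on the strand of the gene, with matches in capitals. Isg15 has 3 overlapping matches, at 78, 72 and 66 bases before the start. Trim30a has 1 match, on the opposite strand, 36 bases before the start, so that the capitals show its reverse complement. A window at another start of Trim30a also held 1 match.
Isg15, chr4:156200819-156201068, minus strand: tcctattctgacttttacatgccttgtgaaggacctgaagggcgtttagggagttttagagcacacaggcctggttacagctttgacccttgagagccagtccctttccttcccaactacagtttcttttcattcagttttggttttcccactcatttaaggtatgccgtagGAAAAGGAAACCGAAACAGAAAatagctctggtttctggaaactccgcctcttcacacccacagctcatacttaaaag
Trim30a, chr7:104465194-104465443, minus strand: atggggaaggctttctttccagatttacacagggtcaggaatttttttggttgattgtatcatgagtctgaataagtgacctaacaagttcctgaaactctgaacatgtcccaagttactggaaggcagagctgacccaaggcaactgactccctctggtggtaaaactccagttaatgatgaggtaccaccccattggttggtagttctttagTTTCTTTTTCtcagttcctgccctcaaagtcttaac

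Library totals ran from 7867323 to 15278538 counts in the minocycline table and from 19519117 to 23902719 in the enrichment table. All 10 microglia markers had counts in every library, with summed levels of 34555 to 55264 CPM (counts per 1000000 of the TMM-scaled library total). Transcripts of choroid plexus, a tissue of the ventricles beside the HC, went against the region label in 7 libraries. PFC CUMS_M 3, PFC VEH 2, PFC VEH 3, PFC EE 2 and PFC EE 3 had 225 to 1100 summed CPM of the 4 markers, like libraries labelled HC, and HC VEH 1 and HC VEH 2 had 0.613 and 1.45, like libraries labelled PFC. The other PFC libraries had at most 12.02 and the other HC libraries at least 203. Comparisons that use those 7 libraries are therefore given with and without them, while levels are given over all libraries. Without them PFC VEH, PFC EE and HC VEH are left with 1 library each.

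Expression of the interferon response genes was low to moderate and covered a wide range. By mean CPM in the minocycline table, 6 members lay under 5, 17 between 5 and 20, and 14 at 20 or more. The numbers in the enrichment table were 5, 17 and 15. Per length of exon (CPM per kilobase, RPKM), the highest levels were those of 2 membrane proteins. Bst2, which tethers budding virus at the cell surface, had a mean of 74.6 RPKM over the minocycline libraries (range 53.5 to 90.9), and Ifitm3, which blocks virus entry, had 61.3 (36.6 to 96.2), so the 2 ranges overlapped. Means in the enrichment table were 60.3 RPKM for Bst2 and 36.6 for Ifitm3. The interferon-induced gene Ifi27l2a followed at 34.1 RPKM and the Schlafen gene Slfn2 at 30.1 in the minocycline table.

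Among the transcription factors, Irf9 had 14.9 RPKM, Stat2 8.17 and Irf7, the factor that amplifies interferon production, 3.62 in the minocycline table. The RNA helicases that sense foreign RNA were at 6.77 RPKM for Ddx58 (RIG-I), 6.39 for its regulator Dhx58 and 3.61 for Ifih1 (MDA5). The DNA-binding sensor Ifi204 had 2.90 RPKM, and Zbp1, which senses Z-form nucleic acid, 1.71. In the ISG15 system the modifier Isg15 had 8.98 RPKM, Usp18, which removes it, 2.50 and Herc6, a ligase that attaches it, 1.37. The ADP-ribosylation genes Parp9 and Parp14 had 11.7 and 9.92 RPKM. Among the other induced genes, Trim30a had 18.3 RPKM, Ifi35 17.8, Rtp4 5.92, the nuclear body protein gene Sp100 4.18, Slfn5 3.23 and Xaf1 2.40.

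The classical antiviral effectors ran from the middle to the bottom of the range. Ifit3, which binds viral RNA in a complex with its relatives, had 7.10 RPKM in the minocycline table, Ifit2 2.22, Ifit3b 1.22 and Ifit1 0.873. The oligoadenylate synthetases, which activate the ribonuclease RNase L, had 4.42 RPKM for Oas1a, 1.48 for Oas2 and 0.904 for Oas3. Their relatives Oasl2 and Oasl1 had 2.63 and 1.04 RPKM. The GTPase genes Mx1 and Mx2 had 1.40 and 1.25 RPKM, the nucleotide kinase Cmpk2 1.23 and the radical enzyme Rsad2 (viperin) 0.985. The gene annotation lists Mx2 as a polymorphic pseudogene, and whether either transcript yields a working GTPase in these mice was not tested. Ifi44 had 0 to 12 counts per library in the minocycline table and 0 to 13 in the enrichment table, a mean of 0.069 and 0.040 RPKM. Some of these genes share sequence with a close copy, so their counts are uncertain. Of all 76-base windows of a gene's transcripts, 47.3% also occurred in another gene for Oas1a (Oas1g), 40.7% for Ifit3 (Ifit3b), 35.3% for Ifit3b (Ifit3), 13.1% for Ifi204, 11.2% for Herc6, 10.4% for Rtp4 and 4.96% for Trim30a (Trim30d).

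**Figure D1:**
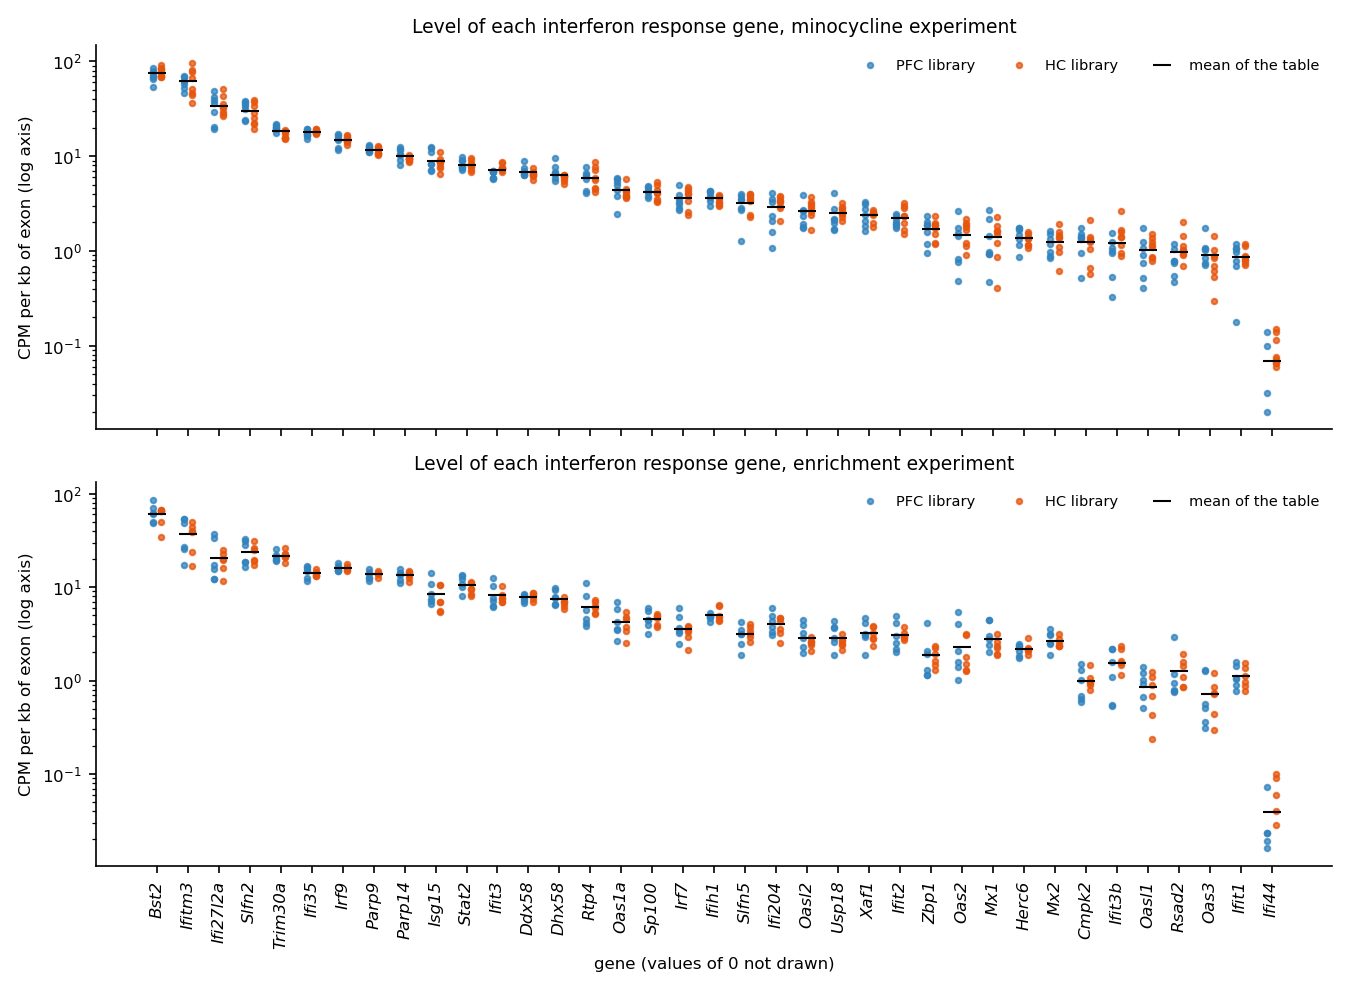
Level of each of the 37 interferon response genes as CPM per kilobase of exon (vertical log axis) in every PFC and HC library of the minocycline experiment (upper panel, 15 libraries) and the enrichment experiment (lower panel, 12 libraries), with genes ordered by their mean in the minocycline table and the black bar as the mean of all libraries. Bst2 and Ifitm3 lead in both panels, Ifi44 is last, and blue and orange points mostly overlap.

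Differences between groups in the members as a set were close in size to the spread within groups. For 36 members (all but Ifi44) the mean of log2(CPM + 0.5) was taken in each library. In the minocycline table the group means of this score ran from 3.80 in PFC CUMS_M to 4.01 in PFC CUMS, and the pooled SD within groups was 0.18. In the enrichment table they ran from 3.91 in HC VEH to 4.11 in HC EE, with a pooled SD within groups of 0.23.

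The spread was widest in PFC EE, whose libraries scored 3.99, 4.49 and 3.75. PFC EE 2 was the highest of its group for 26 of 36 members and the highest of all 12 enrichment libraries for 13 of them. It had 14.6 CPM of Zbp1 where the other 11 libraries had at most 8.20, 12.8 CPM of Rsad2 where they had at most 8.36, and 22.7 CPM of Irf7 where they had at most 17.9. This library also had 1100 summed CPM of the choroid plexus markers and 936 of the 4 red blood cell markers. PFC VEH 1 was the highest of its group for 24 of 36 members (score 4.21), and it led the table for Rtp4 at 23.8 CPM, Ifit3 at 22.1 and Isg15 at 10.8. In the minocycline table the lowest score was that of PFC CUMS_M 2 (3.53), a library of 8619134 counts. The part of depth and of the other cell types in these scores was not tested. In bulk RNA, fewer cells of a type and less RNA per cell cannot be told apart.

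**Figure D2:**
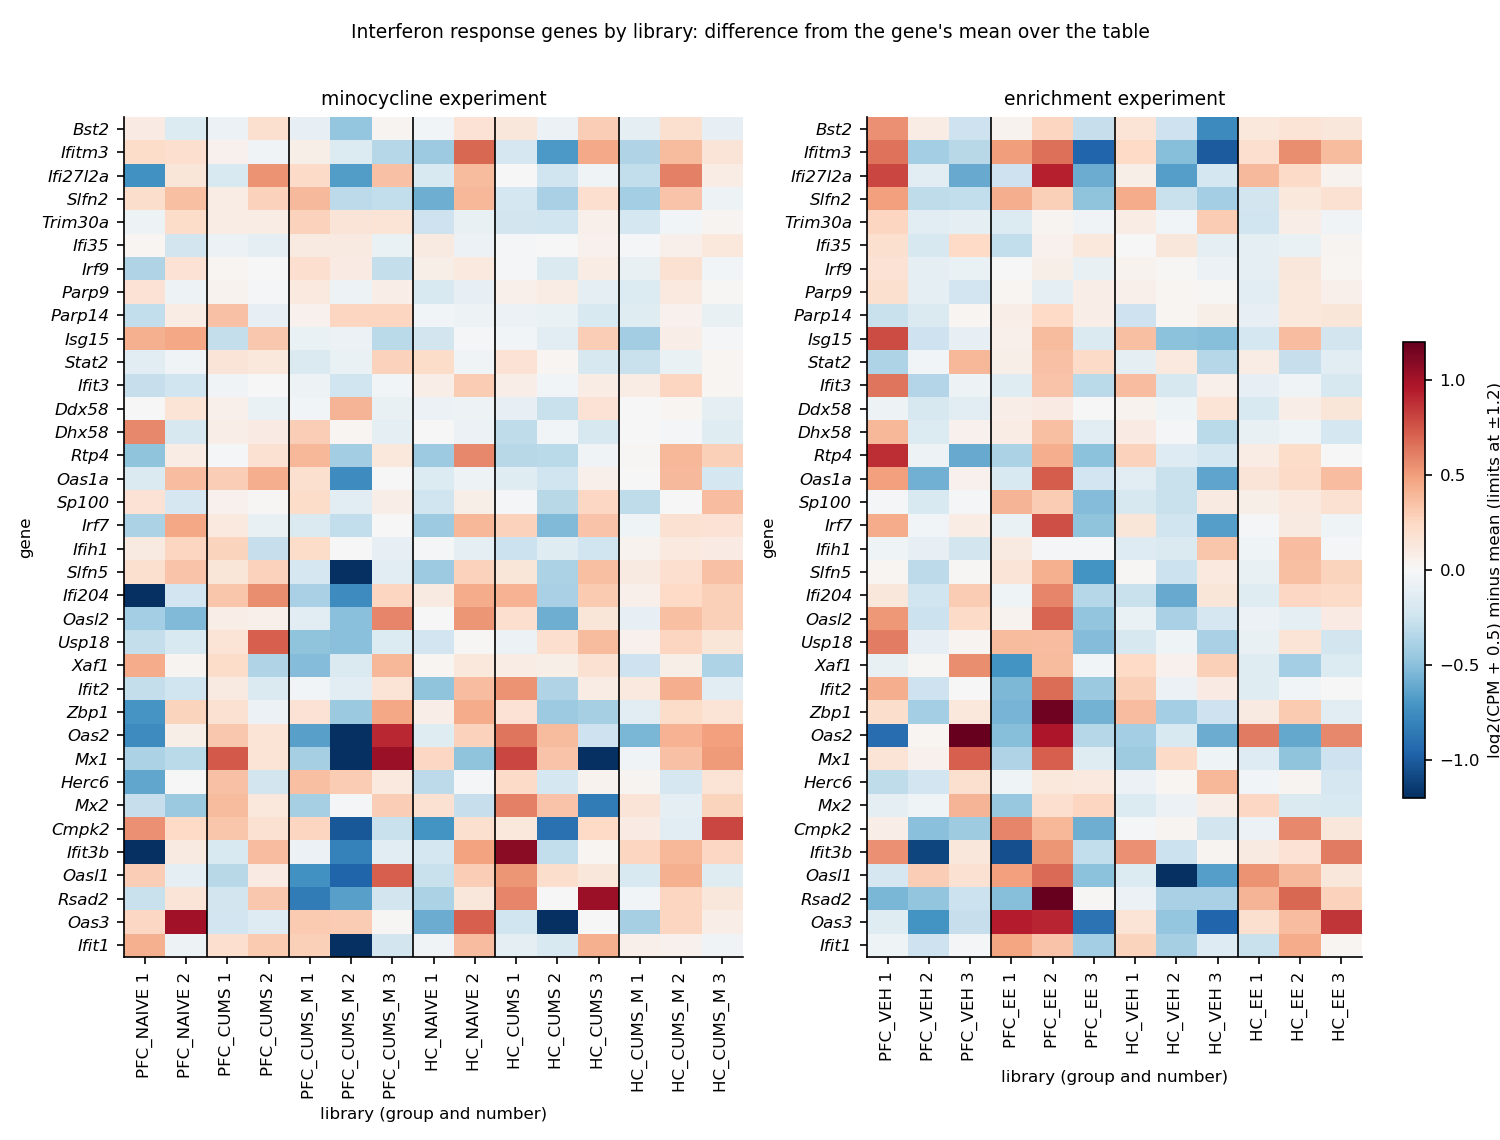
Difference of each library from the gene's own mean in log2(CPM + 0.5) for 36 interferon response genes (rows, ordered by level per length) in the minocycline (left) and enrichment (right) experiments, with libraries in columns and black lines between groups. The column PFC_EE 2 is red for most genes and PFC_CUMS_M 2 is blue for many, while no group is red or blue as a block.

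Stress was compared with the naive state in each region to ask whether CUMS changed the interferon response genes. In PFC, 0 of 37 members were called by edgeR's quasi-likelihood test at an adjusted p under 0.05 over all tested genes, against 0.816% of all genes. DESeq2 called 0, against 2.39%. At an unadjusted p under 0.05 there were 2 members, against 13.7% of all genes. The median log2 fold change of the members was 0.09, beside 0.02 for all genes, and 24 of 37 lay above 0 (64.9%, against 52.4% of all genes). The median was 0.26 without PFC NAIVE 2 and 0.05 without PFC CUMS 2. The 95% interval of the difference stayed within 2-fold in both directions for 20 of 37, so for the other members a change of that size was not excluded.

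Ifi204 had the smallest p of the members in that comparison. Its level was 3.79 and 8.26 CPM in PFC NAIVE and 12.5 and 14.7 in PFC CUMS. Both stressed libraries were above both naive ones, and the fitted difference was 1.16 ± 0.37 (log2, SE; 2.24-fold, adjusted p = 0.165 in edgeR). The difference was 1.83 without PFC NAIVE 2 and 0.73 without PFC NAIVE 1, and each of these fits rests on 1 naive library. Usp18 had 5.49 and 5.92 CPM in PFC NAIVE and 7.70 and 11.5 in PFC CUMS, again without overlap (0.75 ± 0.31, adjusted p = 0.294 in edgeR). Isg15 went the other way, with 9.15 and 9.37 CPM in PFC NAIVE and 5.39 and 8.44 in PFC CUMS (-0.42, adjusted p = 0.587 in edgeR). Thus, the modifier and the enzyme that removes it did not share a direction, and neither difference passed the test.

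Other effectors of the PFC comparison also had large but uncertain differences. Oas3 had 7.19 and 12.4 CPM in PFC NAIVE and 5.01 and 5.29 in PFC CUMS (-0.93 ± 0.47, adjusted p = 0.395 in edgeR). Oasl2 had 12.2 and 11.1 CPM against 17.3 and 17.0 (0.56 ± 0.33, adjusted p = 0.479), and Mx1 3.53 and 3.70 against 8.24 and 5.38 (0.92 ± 0.76, adjusted p = 0.630). The libraries of the groups did not overlap for 12 of 37 members, these genes among them, against 43.6% of all genes. By role, 7 of 9 RNA-binding and RNA-degrading effectors and 4 of 6 membrane, GTPase and nucleotide effectors lay above 0, with medians of 0.25 and 0.11. The 8 neutrophil markers summed to 2840 to 4102 CPM in PFC NAIVE and 1519 to 1998 in PFC CUMS, and the 9 astrocyte markers to 223 to 257 and 702 to 762, with none of either list at 0 in every library. Their part in these differences was not tested.

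In HC, stress gave 0 of 37 members in edgeR, as it gave 0% of all genes, and 0 in DESeq2 (0.00686% of all genes). At an unadjusted p under 0.05 there were 0 members, against 2.87% of all genes. The median was 0.01 and 20 of 37 members lay above 0, with 25 of 37 intervals within 2-fold. Without any 1 library the median ran from -0.09 to 0.16. Rsad2 had 2.99 and 4.47 CPM in HC NAIVE and 6.30, 4.05 and 8.71 in HC CUMS (0.77 ± 0.40, adjusted p = 0.9999 in edgeR), so the groups overlapped. Zbp1 had 6.22 and 8.17 CPM in HC NAIVE and 6.67, 4.19 and 4.32 in HC CUMS (-0.51 ± 0.36). Oas3 had a difference of -0.68 ± 0.42, Usp18 of 0.30 ± 0.28 and Mx1 of 0.27 ± 0.67, all with overlapping libraries. The 10 members followed in every comparison (Ifit3, Isg15, Irf7, Stat2, Usp18, Oasl2, Rtp4, Ifitm3, Bst2 and Ifi27l2a) ran from -0.40 to 0.30 in HC and from -0.42 to 0.75 in PFC.

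The effect of stress was also compared between regions. The difference of effects, HC minus PFC, was called for 0 of 37 members in edgeR, against 0% of all genes. DESeq2 called 0 of the 36 members with an adjusted p, against 0.205% of the 13163 genes with one. In edgeR 1 member had an unadjusted p under 0.05, against 6.27% of all genes. That member was Ifi204, with -1.30 ± 0.49 (log2, adjusted p = 0.643 in edgeR). Its HC libraries had 10.5 and 13.5 CPM in NAIVE and 13.3, 7.36 and 12.3 in CUMS, so its HC groups overlapped where its PFC groups did not. Oasl2 had a difference of effects of -0.90 ± 0.44, Isg15 of 0.60 ± 0.43 and Xaf1 of 0.34 ± 0.40, none of which passed.

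**Figure D3:**
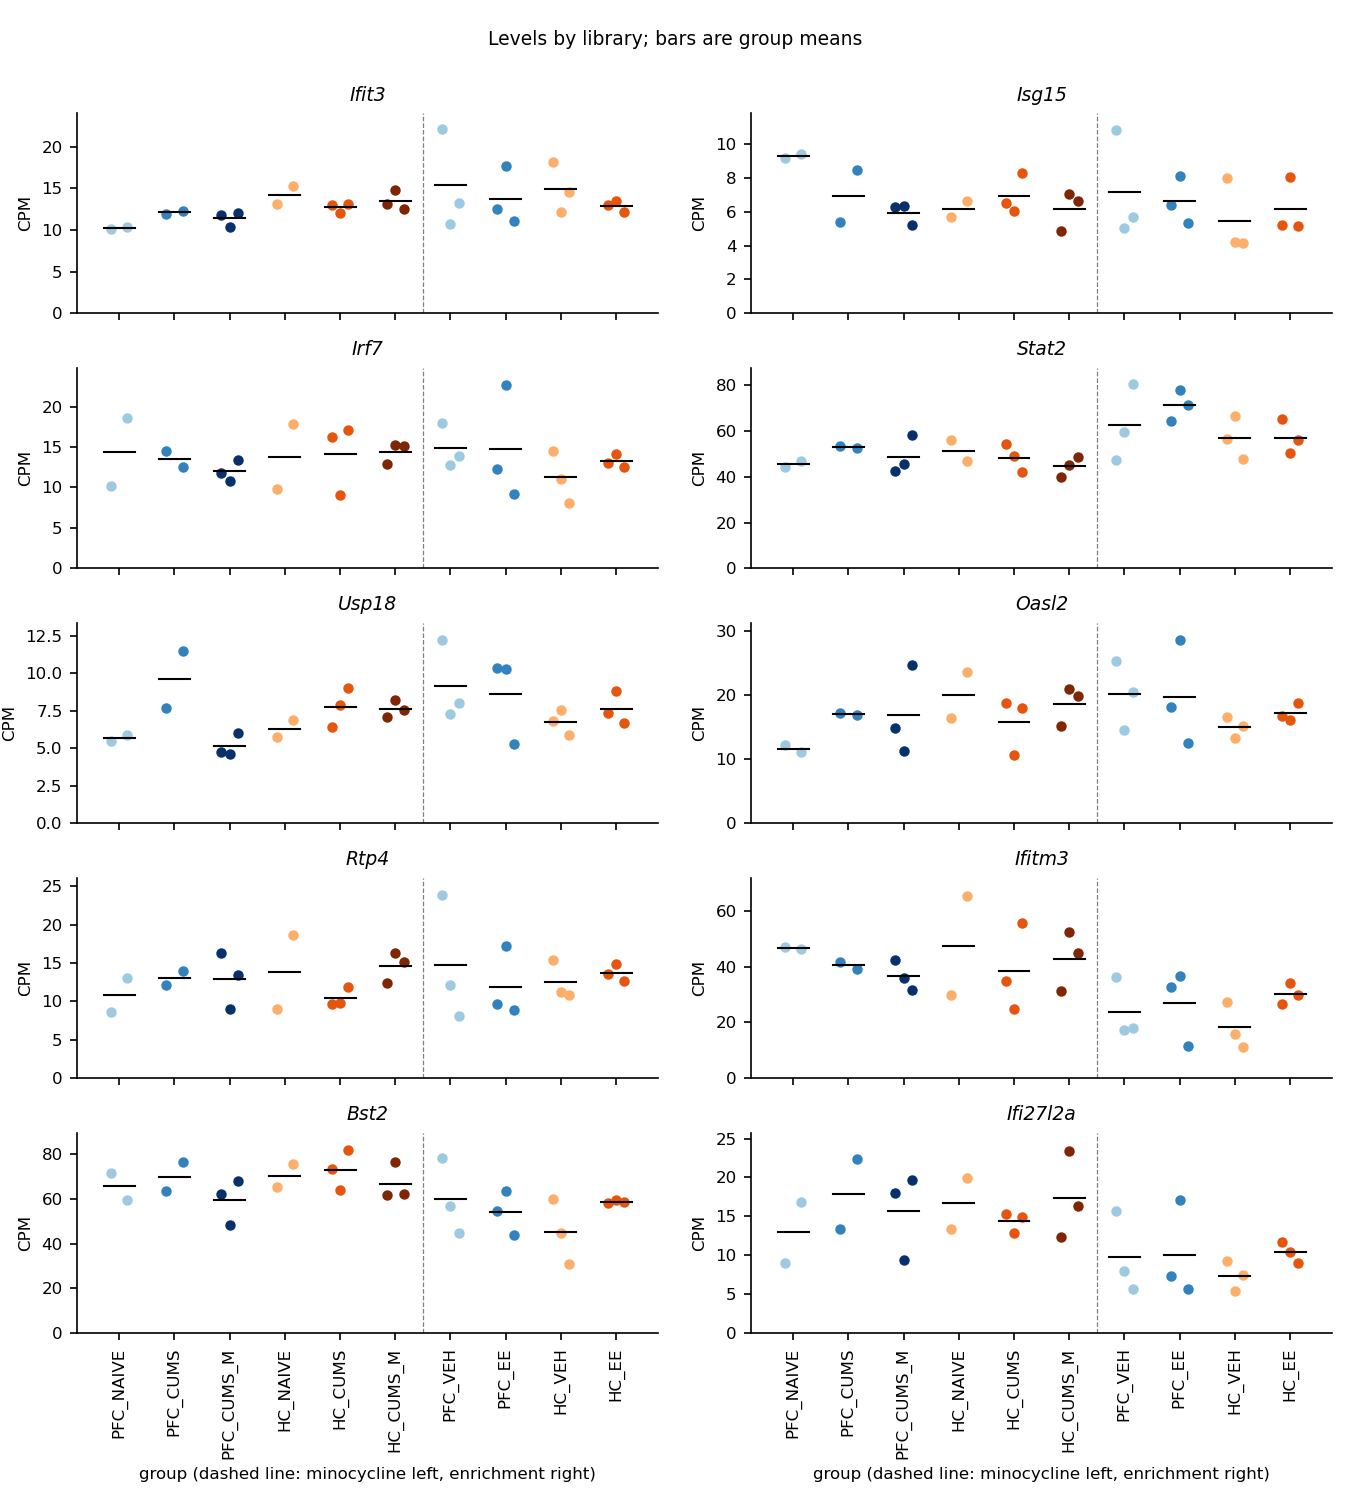
CPM of 10 interferon response genes in every library, by group, with the minocycline experiment left and the enrichment experiment right of the dashed line and the bar at the group mean. Most neighbouring groups overlap, and Usp18 in PFC_CUMS (7.70 and 11.5 CPM) lies above PFC_NAIVE and PFC_CUMS_M.

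Minocycline was compared with stress alone, which uses the same CUMS libraries as the comparison above, so the results are not independent. In PFC, 0 of 37 members were called by edgeR, against 0.0206% of all genes, and 0 by DESeq2, against 0.501%. At an unadjusted p under 0.05 there were 3 members, all lower with minocycline, against 5.54% of all genes in either direction. The median was -0.12, beside 0.02 for all genes, and 13 of 37 members lay above 0 (35.1%, against 53.3% of all genes). All 10 of the members followed throughout lay below 0, from -0.89 to -0.0038, and so did all 6 membrane, GTPase and nucleotide effectors. Bst2 and Ifitm3 are in both lists. Above 0 lay 3 of 5 sensors, 2 of 2 ADP-ribosylation genes and 3 of 9 RNA-binding and RNA-degrading effectors. So did 3 of 9 other induced genes, 1 of 3 transcription factors and 1 of 3 members of the ISG15 system. Here 23 of 37 intervals stayed within 2-fold.

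Usp18 had 7.70 and 11.5 CPM in PFC CUMS and 4.74, 4.64 and 6.02 in PFC CUMS_M. All 3 minocycline libraries were below both CUMS libraries and near the naive 5.49 and 5.92, and the difference was -0.89 ± 0.28 (adjusted p = 0.396 in edgeR). Ifi204 had 7.35, 5.60 and 11.8 CPM with minocycline against 12.5 and 14.7 (-0.71 ± 0.32, adjusted p = 0.825). Slfn5, a Schlafen protein, had 17.1, 7.98 and 17.9 against 21.8 and 23.9 (-0.66 ± 0.29, adjusted p = 0.783). Above 0 were Oas3 (0.45 ± 0.43) and Herc6 (0.17 ± 0.24). The groups did not overlap for 6 of 37 members, Usp18, Ifi204 and Slfn5 among them, against 21% of all genes, and none of these differences passed the test over all genes. Without PFC CUMS_M 3, the library with choroid plexus transcripts, 0 members were called, against 0 genes higher and 9 lower of 14521. The median was then -0.26 (it was -0.02 without PFC CUMS_M 2). In the fit without PFC CUMS_M 3, Usp18 and Ifi204 differed by -1.03 (adjusted p = 0.288) and -1.06 (adjusted p = 0.325 in edgeR). Without PFC CUMS 2 the difference for Usp18 was -0.58 (adjusted p = 1). The 9 astrocyte markers summed to 702 to 762 CPM in PFC CUMS and 299 to 475 in PFC CUMS_M, and the 10 endothelial and mural markers to 181 to 232 and 74.9 to 111, and their part in these differences was not tested.

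In HC, minocycline gave 0 of 37 members in edgeR (0.00686% of all genes). DESeq2 called 0 of the 12 members for which it gave an adjusted p, against 0.533% of the 6382 genes with one. In edgeR 1 member had an unadjusted p under 0.05 (4.01% of all genes). The median was 0.05 and 24 of 37 members lay above 0, with 27 of 37 intervals within 2-fold. Without any 1 library the median ran from -0.02 to 0.12. The groups did not overlap for 3 of 37 members, against 10.3% of all genes. The RNA sensor Ifih1 had 24.4, 26.4 and 24.7 CPM in HC CUMS and 30.2, 31.8 and 31.3 in HC CUMS_M. The groups did not overlap and the spread within each was small, but the difference of 0.30 ± 0.14 had an adjusted p of 1 in edgeR. By role, 5 of 5 sensors, 5 of 9 RNA-binding and RNA-degrading effectors and 0 of 3 members of the ISG15 system lay above 0, against 51.5% of all genes. Rtp4, a receptor transporter protein induced by interferon, had 9.63, 9.72 and 11.9 CPM in HC CUMS and 12.4, 16.4 and 15.1 in HC CUMS_M (0.49 ± 0.25, adjusted p = 1). Oas3 had a difference of 0.46 ± 0.38, Xaf1 of -0.30 ± 0.24 and Isg15 of -0.17 ± 0.26.

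Between regions, the effect of minocycline differed for 0 of 37 members in edgeR (0.00686% of all genes). DESeq2 called 0 of the 28 members with an adjusted p, against 0.0316% of the 9490 genes with one. In edgeR 1 member, Usp18, had an unadjusted p under 0.05 (3.47% of all genes). The difference for Usp18, HC minus PFC, was 0.86 ± 0.37 (adjusted p = 0.999 in edgeR), with HC libraries at 6.44, 7.90 and 8.99 CPM in CUMS and 7.07, 8.21 and 7.55 in CUMS_M. The median over members was 0.19, beside 0.01 for all genes, and 29 of 37 lay above 0, against 51.0% of all genes. The largest difference of effects among members above 5 CPM was that of Cmpk2 (1.003 ± 0.61), and the lowest were those of Xaf1 (-0.29 ± 0.36) and Herc6 (-0.21 ± 0.32). Without PFC CUMS_M 3 edgeR called 0 members, against 1 of 14521 genes. In that fit 4 members had an unadjusted p under 0.05 in edgeR, against 684 of 14521 genes. The median was then 0.20 and the difference for Usp18 was 0.99 (adjusted p = 0.918 in edgeR).

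Against naive mice, stressed mice given minocycline had 0 of 37 members called in both regions by edgeR, against 0.0892% of all genes in PFC and 0% in HC. DESeq2 called 0 of 36 in PFC (1.01% of the 14011 genes with an adjusted p) and 0 of 37 in HC (0.00686% of 14577). Members with an unadjusted p under 0.05 numbered 3 in PFC (14% of all genes) and 0 in HC (2.33%). Isg15 was 9.15 and 9.37 CPM in PFC NAIVE and 6.29, 6.31 and 5.23 in PFC CUMS_M (-0.64 ± 0.29, adjusted p = 0.341 in edgeR). Herc6 went the other way, from 7.97 and 12.6 to 16.3, 15.6 and 13.6 CPM (0.56 ± 0.25, adjusted p = 0.332), and Slfn5 differed by -0.72 ± 0.29 (adjusted p = 0.306). Oasl2 had 0.56 ± 0.31 and Cmpk2 -0.70 ± 0.46 in PFC, and in HC Cmpk2 had 0.56 ± 0.46, Mx1 0.39 ± 0.67, Xaf1 -0.26 ± 0.27 and Oas3 -0.22 ± 0.42, with overlapping libraries in all of these. Medians were 0.07 in PFC and 0.04 in HC, with 18 and 27 of 37 intervals within 2-fold. Without any 1 library they ran from -0.05 to 0.11 in PFC and from -0.10 to 0.20 in HC. Without PFC CUMS_M 3 the PFC median was -0.05 and 0 members were called, against 4 genes higher and 0 lower of 14521.

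**Figure D4:**
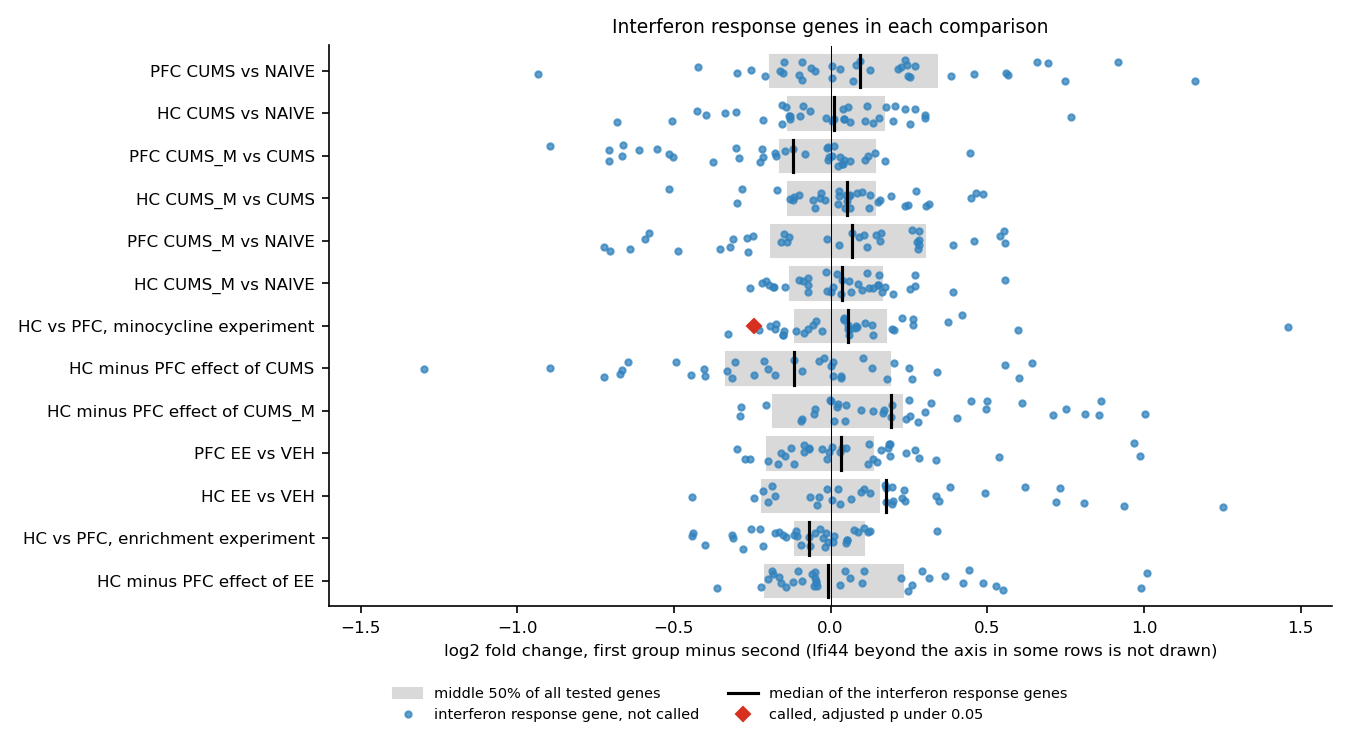
Log2 fold change of each tested interferon response gene (points) in each of the 13 comparisons (rows, first group minus second, or difference of effects), with the median of the members as a black bar and the interquartile range of all tested genes as a grey box. The members' medians lie between -0.12 and 0.19, inside or at the edge of the grey boxes except in HC EE vs VEH, where 0.18 lies just above, and only Trim30a in HC vs PFC of the minocycline experiment is called.

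HC was compared with PFC over all treatments of the minocycline experiment to ask whether the regions differ in these genes. One region difference passed: Trim30a, a tripartite motif protein that is interferon-induced in mice, was lower in HC. It had 71.5 and 86.9 CPM in PFC NAIVE, 79.5 and 79.6 in PFC CUMS and 90.4, 83.4 and 83.5 in PFC CUMS_M. The HC libraries had 62.9 and 70.3 CPM in NAIVE, 64.1, 63.3 and 77.9 in CUMS and 64.5, 73.1 and 76.6 in CUMS_M. Every HC library was below all PFC libraries other than PFC NAIVE 1, through which the regions overlapped. The regions overlapped for all 37 members, and 1.25% of all genes had no overlap. Means were 69.1 ± 6.19 CPM in HC (SD, n = 8) and 82.1 ± 6.08 in PFC (SD, n = 7).

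The difference for Trim30a was -0.24 ± 0.07 (log2, SE; 95% interval -0.39 to -0.10, 1.18-fold, adjusted p = 0.0492 in edgeR and 0.0227 in DESeq2). Trim30a spans chr7:104409025-104465193 on the minus strand of GRCm38 and is protein coding. Since 4.96% of its 76-base windows occur in Trim30d, part of its count is uncertain. The call is 1 of 37 members against 5.1% of all genes in either direction and 1.67% in the direction lower in HC, and DESeq2 also called 1 member, against 8.05% of all genes, so the share of members called was near the background. The call for Trim30a was kept without PFC NAIVE 1, HC CUMS 3 or HC CUMS_M 3 and was lost without any 1 of the other 12 libraries (adjusted p up to 0.147 in edgeR), PFC CUMS_M 3 among them (-0.25, adjusted p = 0.0507). Without PFC NAIVE 2 Dhx58 was called in its place (-0.34, adjusted p = 0.0455). At an unadjusted p under 0.05 there were 2 members, against 19% of all genes.

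The second of these members was Ifit3, higher in HC at 13.4 ± 1.11 CPM (n = 8) against 11.3 ± 0.948 in PFC (n = 7), a difference of 0.26 ± 0.11 with an adjusted p of 0.195 in edgeR. Its promoter windows above are the same as those of Ifit3b, with which it shares sequence. Ifi204 (0.38 ± 0.19), Oasl2 (0.26 ± 0.17) and Oas3 (-0.33 ± 0.25) had overlapping regions. The median over members was 0.05, beside 0.02 for all genes, and the interval stayed within 2-fold for 35 of 37. The choroid plexus markers summed to 549 CPM or more in every HC library and to at most 2.61 in every PFC library but PFC CUMS_M 3, and their part in the region differences was not tested.

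In the enrichment experiment the same comparison called 0 of 36 members in edgeR and in DESeq2, against 0% of all genes in both. At an unadjusted p under 0.05 there were 0 members, against 2.08% of all genes. Trim30a had 105, 80.2 and 81.3 CPM in PFC VEH, 78.6, 90.1 and 85.7 in PFC EE, 93.7, 85.8 and 109 in HC VEH and 74.4, 93.0 and 85.6 in HC EE, with full overlap between regions. The median was -0.07, 11 of 36 members lay above 0, and 33 of 36 intervals were within 2-fold. The outermost members above 5 CPM were Mx1 (-0.44 ± 0.21), Oas2 (-0.40 ± 0.41), Ifih1 (0.12 ± 0.11) and Slfn5 (0.11 ± 0.17). Without the libraries that went against their region label, 3 of 4 groups hold 1 library, which is assumed to vary like those of HC EE. For that fit only effect sizes are given. Members lower in HC included Ifitm3 (-0.90), Bst2 (-0.61), Slfn2 (-0.65), Usp18 (-0.75) and Dhx58 (-0.47). Over the 37 members the median was -0.08, and 14 lay above 0, against 54.3% of all genes.

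Enrichment was compared with vehicle in stressed mice. In PFC, 0 of 36 members were called by edgeR, as were 0% of all genes, and 0 by DESeq2, against 0.107%. There were 2 members with an unadjusted p under 0.05, against 4.25% of all genes. The median was 0.03, beside -0.02 for all genes, with 20 of 36 members above 0 and 26 of 36 intervals within 2-fold. Leaving out PFC EE 2 turned the median to -0.16 and leaving out PFC VEH 2 to -0.12.

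Rsad2 had 3.27, 3.46 and 4.10 CPM in PFC VEH and 3.37, 12.8 and 5.05 in PFC EE. The groups overlapped and the high mean came from PFC EE 2, so that the difference of 0.97 ± 0.39 (adjusted p = 0.986 in edgeR) was 0.23 without it. Oas3 had 4.02, 2.55 and 3.63 CPM against 9.11, 8.93 and 2.21, with overlap through PFC EE 3 (0.99 ± 0.46, adjusted p = 0.986), and Oas2 differed by -0.27 ± 0.58. Parp14, which adds ADP-ribose to proteins, had 103, 110.5 and 126 CPM in PFC VEH and 131, 147 and 132 in PFC EE, one of 3 members of 36 whose groups did not overlap, against 9.19% of all genes (0.27 ± 0.12, adjusted p = 0.986). Irf7 had 17.9, 12.8 and 13.9 CPM against 12.3, 22.7 and 9.23, and Rtp4 23.8, 12.1 and 8.12 against 9.61, 17.2 and 8.83. In both the highest and lowest enriched libraries spanned most of the vehicle range. Without the libraries that went against their label, 1 library of each group remained, PFC EE 1 and PFC VEH 1. The spread of that fit came from the HC EE libraries alone, so only effect sizes of members are given. The 1.92% of all genes that edgeR called in it rests on the same spread. Rtp4 differed by -1.32 in that fit.

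In HC, enrichment gave 0 of 36 members in edgeR, as it gave 0% of all genes, and 0 in DESeq2, against 2.77%. There was 1 member with an unadjusted p under 0.05, against 10.4% of all genes. The median of the members was 0.18, beside -0.03 for all genes, 26 of 36 lay above 0 (72.2%, against 46.0% of all genes), and 26 of 36 intervals stayed within 2-fold. Without any 1 library the median ran from 0.06 to 0.26. Of the 9 RNA-binding and RNA-degrading effectors 7 lay above 0, and of the 6 membrane, GTPase and nucleotide effectors 5.

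Oasl1, an oligoadenylate synthetase-like protein, had 1.79, 0.616 and 1.12 CPM in HC VEH and 3.24, 2.85 and 2.32 in HC EE. All enriched libraries were above all vehicle libraries, and the difference was 1.25 ± 0.45 (2.38-fold, adjusted p = 0.316 in edgeR) at 14 to 75 counts per library of the table. Rsad2 had 4.76, 3.70 and 3.72 CPM in HC VEH and 6.80, 8.36 and 6.16 in HC EE (0.81 ± 0.38, adjusted p = 0.494). Oas3 had 5.09, 3.12 and 2.09 CPM against 5.23, 5.98 and 8.58 (0.94 ± 0.46, adjusted p = 0.512). The groups did not overlap for 5 of 36 members, these 3 among them, against 16% of all genes, and none of the 3 differences passed. Ifitm3 had 27.3, 16.0 and 11.3 CPM in HC VEH and 26.6, 34.1 and 30.0 in HC EE, and Bst2 59.8, 44.5 and 31.1 against 58.2, 59.7 and 58.6. For both genes the enriched libraries were close to each other and near the highest vehicle library, HC VEH 1. Xaf1, a pro-apoptotic protein induced by interferon, had the lowest difference of the members above 5 CPM (-0.44 ± 0.25, adjusted p = 0.592), at 17.4, 15.2 and 18.1 CPM in HC VEH and 13.3, 10.98 and 13.1 in HC EE, and Mx1 followed at -0.24 ± 0.29.

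Without HC VEH 1 and HC VEH 2, the libraries with the lowest choroid plexus level of that region, edgeR called 3 of 37 members, all higher with enrichment, against 5.82% of all genes. They were Ifitm3 (1.44, adjusted p = 0.000141), Bst2 (0.94, adjusted p = 0.000986) and Oas3 (1.67, adjusted p = 0.0202), each against HC VEH 3 alone. The same fit also left out PFC VEH 2, PFC VEH 3, PFC EE 2 and PFC EE 3, so only HC EE kept more than 1 library. The spread within groups therefore came from the HC EE libraries alone, so only effect sizes of members are given. The 5.82% of all genes that edgeR called in that fit rests on the same spread. Over the 37 members of that fit the median was 0.27, beside 0.03 for all genes. Of the 37, 27 lay above 0, against 52.5% of all genes. With any 1 HC library left out instead, HC VEH 1 or HC VEH 2 included, edgeR called 0 members. It also called 0 of all genes in these fits, except without HC EE 2, where it called 41 of 16559. The 0 members therefore say little about the members themselves. The 4 red blood cell markers summed to 39.4 to 56.9 CPM in HC VEH and 335 to 768 in HC EE, and to 29.4 to 54.9 in PFC VEH and 191 to 936 in PFC EE, with none of them at 0. The 4 choroid plexus markers summed to 0.613 to 203 CPM in HC VEH and 486 to 1925 in HC EE, the astrocyte markers to 430 to 545 and 636 to 863, and the 7 border macrophage markers to 340.0 to 440 and 573 to 789. Their part in the enrichment differences was not tested.

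The effect of enrichment differed between regions for 0 of 36 members in edgeR and in DESeq2, against 0% of all genes in both, with 0 members at an unadjusted p under 0.05 (4.21% of all genes). The median difference of effects, HC minus PFC, was -0.01, with Oas2 (0.99 ± 0.83) and Ifitm3 (0.55 ± 0.62) highest and Herc6 (-0.36 ± 0.24) and Ddx58 (-0.22 ± 0.16) lowest among members above 5 CPM. It was 0.35 without PFC EE 2 and 0.52 without the libraries that went against their label. The latter fit held 1 library each of PFC VEH, PFC EE and HC VEH, so its spread came from the HC EE libraries alone. Only effect sizes of members are therefore given, and the 2.72% of all genes that edgeR called rests on that spread. Members above 0 included Bst2 (1.46), Ifitm3 (1.59) and Rtp4 (1.66). The value for Rtp4 rests in part on PFC VEH 1, the library with the highest Rtp4 level of the table (23.8 CPM).

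Genes that act before the interferon response genes were examined as a list of 40, of which 31 were tested. Transcripts of the ligands were at or near 0. Ifna1, Ifna2, Ifna4, Ifna5 and Ifne had 0 counts in both tables, which over all libraries allows up to 0.0168 CPM in the minocycline table and 0.0118 in the enrichment table, for counting error only. Ifnb1 had 3 counts over the 15 minocycline libraries and 13 over the 12 enrichment libraries. Ifng had 21 counts over the minocycline libraries, with up to 16 in a library (1.91 CPM), and 14 over the enrichment libraries. Ifnk had 0 and 6. Trex1, listed as an inhibitor, also had 0 counts in both tables. Whether a count of 0 came from absent transcript or from the assignment of reads was not tested. The receptors were well expressed, with means of 105 CPM for Ifnar1, 195 for Ifnar2 and 861 for the interferon gamma receptor Ifngr1 in the minocycline table. Jak1 had 309.5 CPM and Tyk2 95.8.

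In the 12 comparisons other than that between regions of the minocycline experiment, edgeR called 0 of the 31 tested pathway genes. The share of all genes called in them was 0% to 0.816%. At an unadjusted p under 0.05 there were 0 to 5 of 31, against 2.08% to 14% of all genes. The 5 were in PFC CUMS against NAIVE, where the share of all genes was 13.7%. DESeq2 called Tlr9, a receptor for DNA, in PFC CUMS against NAIVE (adjusted p = 0.0496), against 2.39% of all genes. It also called Tlr9 in HC CUMS_M against CUMS (adjusted p = 0.0375), against 0.533% of the 6382 genes with an adjusted p. The adjusted p of Tlr9 in edgeR was 0.115 and 0.582. Between regions edgeR called 3, 2 higher and 1 lower in HC, against 5.1% of all genes, and DESeq2 called 5, against 8.05%. Tlr7, an endosomal receptor for single-stranded RNA, was lower in HC at 242 ± 33.7 CPM (n = 8) than in PFC at 302 ± 16.5 (n = 7), a difference of -0.34 ± 0.07 (adjusted p = 0.0103 in edgeR). Every PFC library lay between 275 and 319.8 CPM and the HC libraries between 187 and 282, so that only the highest HC library, HC CUMS 3, reached the lowest PFC library. Tmem173 (STING), the adaptor of cytosolic DNA sensing, was higher in HC at 662 ± 56.8 against 562 ± 30.2 CPM (0.24 ± 0.06, adjusted p = 0.0204). Ifngr1 was higher in HC at 918 ± 49.1 against 796 ± 35.8 CPM without overlap between regions (0.21 ± 0.05, adjusted p = 0.0244). The call was lost for Tlr7 without HC NAIVE 1 (adjusted p = 0.0537 in edgeR), for Tmem173 without PFC CUMS 1, PFC NAIVE 1 or HC NAIVE 2 (up to 0.0912) and for Ifngr1 without PFC CUMS 1, PFC NAIVE 2 or HC NAIVE 2 (up to 0.124). With treatment and number as a replicate block the difference for Ifngr1 was 0.19 (adjusted p = 0.0621). Without PFC CUMS_M 3 all 3 genes were called. In the enrichment table the libraries of both regions overlapped for all 3 genes, with and without those that went against their label.

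**Figure D5:**
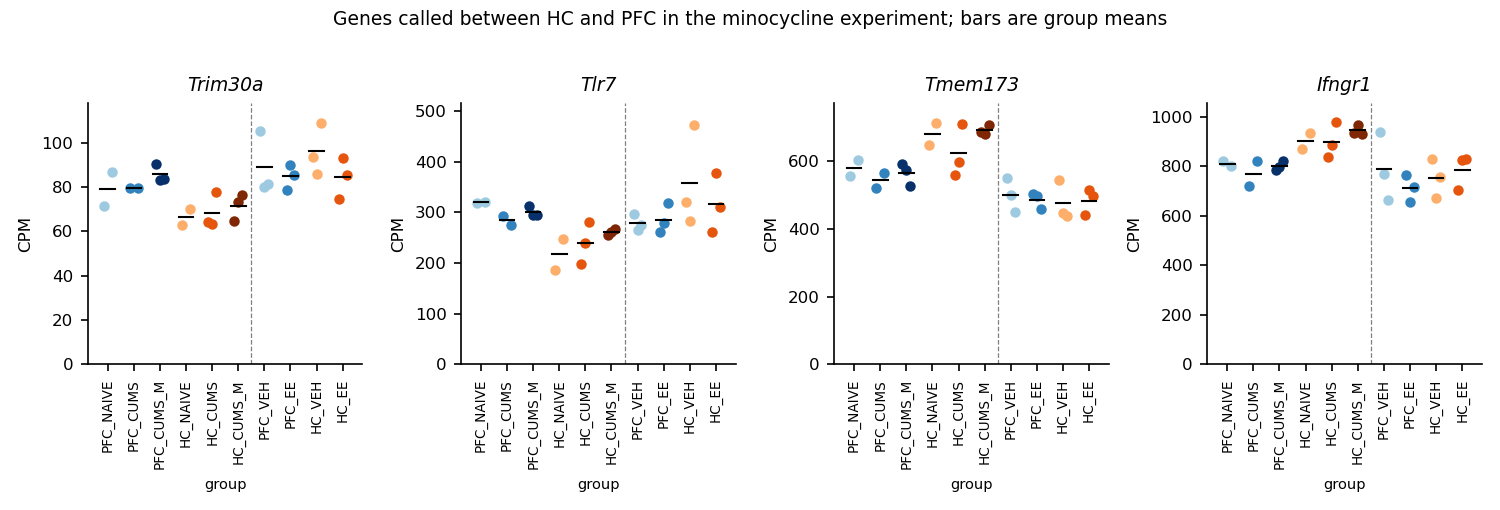
CPM of the member Trim30a and of the pathway genes Tlr7, Tmem173 and Ifngr1 in every library, by group, with the minocycline experiment left and the enrichment experiment right of the dashed line and the bar at the group mean. Left of the line Trim30a and Tlr7 are lower and Tmem173 and Ifngr1 higher in HC (orange and brown) than in PFC (blue), and right of it the regions overlap.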

How the data were processed

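The authors deposited gene counts per library, 1 table per experiment. Per the submitters' processing notes, Trimmomatic 0.36, STAR 2.6.1b, Picard 2.17.1, featureCounts 1.5.3 and DESeq2 1.24.0 were used with mm10/GRCm38; annotation release, strand setting and duplicate handling are not given in the sources used here. Symbols, exon lengths and positions came from GENCODE M21.

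Each table was filtered by filterByExpr (minimum count 10, total 15), scaled by TMM and fitted with the edgeR 4.0.16 quasi-likelihood test, with 1 mean per group. The Benjamini-Hochberg adjustment covered every gene tested in a table, and a gene was called at an adjusted p under 0.05. Region contrasts average the treatments equally. The fit was checked on simulated counts. R 4.3.3, limma 3.58.1, DESeq2 1.42.0 (an alternative test), Python 3.11.15 and matplotlib 3.10.9 were used. Other alternatives were DESeq2 size factors, no filter, the rule of 10 counts in 2 libraries, a replicate block, a fit of the compared groups alone, and leave-one-out fits. Leaving out the libraries whose choroid plexus level goes against their label was added after seeing the data.

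The members and lists were chosen with earlier results of these data known. Named genes are called members, the 2 largest rises and falls per comparison at a mean of 5 CPM or more, 10 fixed members, called pathway genes and, beyond that rule and chosen after their values were seen, further members with a small unadjusted p or a large difference. Same-numbered PFC VEH and PFC EE libraries correlated in their deviations (r from 0.198 to 0.359), the only such set of pairs; no label states this pairing.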

Additional observations from a re-analysis of the deposited data

How the results depend on the processing

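With the replicate number as a block, 0 members were called in each comparison in which 0 were called without it. Of all genes, that block called 0 to 3 in these comparisons, except PFC CUMS against NAIVE (80 higher and 8 lower of 14579). With so few genes called, the 0 members say little about the block. Between regions of the minocycline table it called 1 member (Trim30a), against 381 genes higher and 177 lower of 14579. With treatment and number together as the replicate block Ifngr1 was no longer called between regions (0.19, adjusted p = 0.0621 in edgeR).

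With no filter on low counts 1 member was called in PFC CUMS against NAIVE (Ifi204) and 1 in PFC CUMS_M against NAIVE (Slfn5). Of all 24732 genes in that fit, 357 were called higher and 45 lower in the first comparison. In the second, 189 were called higher and 79 lower. The number called when 1 library was left out ran from 0 to 1 in PFC CUMS against NAIVE and from 0 to 1 between regions of the minocycline table, and the median of the HC minus PFC effect of EE from -0.076 to 0.35. Without the libraries whose choroid plexus level goes against their label, 0 members were called between regions of the minocycline table. Of all 14521 genes in that fit, 645 were called higher and 316 lower in HC. In the enrichment table that setting leaves 1 library each in PFC VEH, PFC EE and HC VEH, so only medians are given. They were -0.25 in PFC EE against VEH, 0.27 in HC EE against VEH, -0.08 between regions and 0.52 for the HC minus PFC effect of EE. The cause of these shifts was not tested. No called value reversed. The medians over members often moved with 1 library left out, since most lie near 0: between regions they ran from -0.05 to 0.09 in the minocycline table and from -0.15 to 0.03 in the enrichment table. Of the recomputed values of called genes 67 kept the call and 21 lost it. The losses were uneven: with 1 library left out, Trim30a lost the call in 12 of 15 fits. Ifngr1 and Tmem173 lost it in 3 of 15 each and Tlr7 in 1 of 15. With 2 or 3 libraries per group and under 5 CPM for several members, 2-fold differences were often not excluded.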
